A study of Mus musculus with 12 samples.

Results

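The 9 genes that mark or drive the first steps of nephron formation, Wnt4, Fgf8, Lhx1, Pax8, Osr2, Irx1, Irx3, Pou3f3 and Cdh6, were followed in whole kidneys of mouse embryos carrying multi-gene Hox mutations. They were chosen by symbol as regulators of the renal vesicle and the S-shaped body, and each of the 9 matched 1 entry among the 36186 genes of the deposited count table. All 9 passed the filter on low counts in every comparison, and their read counts per library lay between 102 (Fgf8) and 6860 (Pax8).

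RNA-seq was performed on whole E18.5 kidneys in 12 libraries, 3 from each of 4 labelled genotypes on a mixed background. Besides wild type, these were Hoxa9,10,11-/- HoxC9,10,11+/- (called Hoxa-/- Hoxc+/- here), Hoxa9,10,11+/- HoxC9,10,11-/- (Hoxa+/- Hoxc-/-) and Hoxa9,10,11-/- HoxC9,10,11-/- (double homozygous mutant), and libraries are named by the embryo numbers of their labels, apart from the last Hoxa+/- Hoxc-/- library, called the third here. For the double homozygous mutants the study's text gives other Hoxa11 alleles than the labels do, heterozygous or wild type, and reports that embryos of the labelled genotype had no detectable kidneys at this stage, so the name of this group repeats its label and does not state that Hoxa11 was lost. By that text the 3 libraries of this group may not share the same Hoxa11 genotype, and the labels do not tell them apart. Their spread may thus include a difference in genotype. Total counts per library were 28616877 to 47067903, with a median of 39328488. Levels are given in CPM after scaling by the trimmed mean of M values (TMM), and group values are the mean ± SD of 3 libraries.

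The nephron begins when Wnt9b from the ureteric bud induces Six2-positive cap mesenchyme to aggregate and to switch on Wnt4 and Fgf8, signals that drive the change from mesenchyme to epithelium. The resulting renal vesicle depends on the LIM homeobox factor Lhx1, and it elongates into the S-shaped body, whose segments prefigure the glomerulus, the proximal tubule, the loop of Henle and the distal tubule. The study describes the Hox genes of paralog groups 9 to 11 as expressed in the developing kidney. It states that its results do not prove that group 9 functions in the kidney. It takes the homology and shared expression of group 9 with the other groups as a strong hint of such a function.

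Library 20 of the Hoxa-/- Hoxc+/- group stood apart. It had the lowest total of the 12 and, over 14223 genes of at least 1 CPM on average, its log2 CPM correlated with the other libraries at r of 0.897 to 0.959, against 0.946 to 0.992 among the remaining 11. Over the 12 libraries it held the highest level of Wnt4, Fgf8, Pax8, Irx3 and Pou3f3 and the lowest level of Irx1 and Cdh6. Log2 fold changes in the comparisons that contain it are therefore also given without it.

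The 3 Hoxa+/- Hoxc-/- libraries came from another sequencing run than the remaining 9, so in that group run and genotype cannot be told apart. Embryo sex was not balanced. Xist, transcribed from the inactive X chromosome, was at most 0.139 CPM in the 3 wild type libraries and in libraries 20, 38, the third Hoxa+/- Hoxc-/- library and 24, and 60.0 to 336 CPM in the other 5. Ddx3y of the Y chromosome was at 54.3 to 93.5 CPM in the libraries without Xist and at most 0.0823 CPM in those with it.

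The mutated Hox alleles carry frameshifts, so the level of a transcript does not check a label. Hoxa10 was at 125, 152 and 164 CPM in wild type and 101, 104 and 111 CPM in the double homozygous mutants, and it fell by 0.49 on the log2 scale (SE 0.11, edgeR adjusted p = 0.0270). Hoxc10 was at 50.1, 58.9 and 66.9 CPM in wild type and 37.9, 29.1 and 35.7 CPM in the double homozygous mutants, and it fell by 0.78 (SE 0.14, edgeR adjusted p = 0.0127). Hoxa9, Hoxa11, Hoxc9 and Hoxc11 did not pass the test in that comparison, and all 6 genes were transcribed in every library.

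In wild type kidneys, levels were compared between the 9 genes per kb of exon. Irx1, an Iroquois homeobox gene of the intermediate segment of the S-shaped body, was at 25.8 ± 0.71 CPM per kb, Wnt4 at 25.2 ± 3.98 and Pax8 at 22.4 ± 2.24, and of these 3 only Irx1 and Pax8 differed by more than their spread. Pou3f3 (14.4 ± 0.98), Osr2 (14.0 ± 1.34) and Irx3 (13.2 ± 0.59 CPM per kb) formed a second tier with overlapping intervals. Lhx1 followed at 11.6 ± 0.87 CPM per kb, below Irx3 by more than the spread. Fgf8 at 5.46 ± 1.34 and Cdh6 at 4.89 ± 1.71 CPM per kb were last and overlapped.

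**Figure D1:**
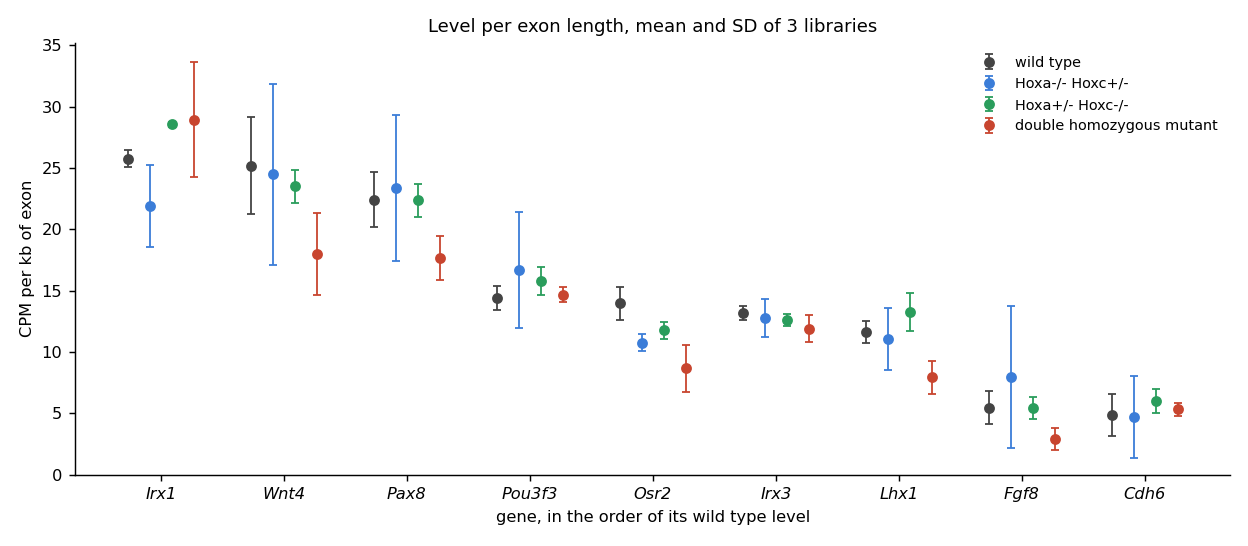
Level of each of the 9 genes in CPM per kb of exon (vertical axis) for the 4 genotypes, as the mean of 3 libraries with error bars of 1 SD; genes stand in the order of their wild type level. Irx1 led in wild type at 25.8 and Cdh6 was last at 4.89, and the wide bars of the Hoxa-/- Hoxc+/- group contain library 20.

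The genes also differed in how much they varied over the 12 libraries. The ratio of the highest to the lowest library, in CPM, was 8.42 for Cdh6 and 7.58 for Fgf8, but library 20 set both, and without it the ratios were 1.87 and 3.35. For Osr2 and Lhx1 it was 2.34 and 2.28 with and without library 20, and for Wnt4 2.19 with it and 1.96 without. For Pax8, Irx1, Pou3f3 and Irx3 it was between 1.86 and 1.30 with library 20 and between 1.51 and 1.22 without it, and Irx3 was the lowest of the 9 both ways. The 9 genes lie on 8 chromosomes, and only Cdh6 and Osr2 share one, chromosome 15.

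Promoter sequences of RefSeq (GRCm38.p6) were matched for 6 of the 9 genes, Wnt4, Lhx1, Pax8, Cdh6, Irx3 and Pou3f3, and not for Fgf8, Osr2 and Irx1. The 250 bases before the start of transcription in RefSeq are printed for Lhx1 and Pax8, whose levels in all double homozygous mutants lay below wild type, and for Cdh6, whose levels overlapped wild type. They are written 5′ to 3′ on the strand of the gene, from chr11:84525535-84525784 (minus strand) for Lhx1, chr2:24475600-24475849 (minus strand) for Pax8 and chr15:13173676-13173925 (minus strand) for Cdh6, and capitals mark motif matches on either strand.
Lhx1: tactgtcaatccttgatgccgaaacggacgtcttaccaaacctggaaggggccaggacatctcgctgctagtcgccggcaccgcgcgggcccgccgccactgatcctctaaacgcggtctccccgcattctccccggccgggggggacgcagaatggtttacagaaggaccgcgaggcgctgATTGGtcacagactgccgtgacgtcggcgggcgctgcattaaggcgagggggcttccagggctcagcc
Pax8: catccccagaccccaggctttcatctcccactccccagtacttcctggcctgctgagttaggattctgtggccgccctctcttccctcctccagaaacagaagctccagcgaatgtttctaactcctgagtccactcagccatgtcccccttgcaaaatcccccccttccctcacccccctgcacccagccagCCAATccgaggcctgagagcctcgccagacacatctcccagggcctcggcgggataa
Cdh6: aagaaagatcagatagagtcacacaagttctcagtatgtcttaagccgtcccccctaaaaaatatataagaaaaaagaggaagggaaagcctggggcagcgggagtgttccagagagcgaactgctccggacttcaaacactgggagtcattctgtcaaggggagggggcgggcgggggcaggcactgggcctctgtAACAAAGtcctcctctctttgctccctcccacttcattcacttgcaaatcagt
The motifs searched on both strands were CTTTGAT and CTTTGTT, bound by the TCF/LEF factors at the end of Wnt signalling, TTTATGG and TTTACGA of posterior Hox proteins, TATAAA and CCAAT, and no match overlapped another. CTTTGTT was found in the Cdh6 window on the strand opposite to the gene, 53 to 47 bases before the start, and in 5.03% of all 32851 promoters. CCAAT was found in the windows of Lhx1 (68 to 64 bases before the start, opposite strand), Pax8 (57 to 53 bases) and, 3 times, Pou3f3, and in 33.8% of all promoters. CTTTGAT (3.20% of all promoters), TTTATGG (2.43%), TTTACGA (0.478%) and TATAAA (12.4%) were in none of the 6 windows. CpG dinucleotides numbered 44 in the Wnt4 window, 26 in Lhx1, 15 in Pou3f3, 13 in Irx3 and 6 each in Pax8 and Cdh6, against a median of 6 over all promoters, and these counts are descriptions of the windows alone. The windows precede the start that RefSeq gives: by the GENCODE gene bounds, the Wnt4 window extends past the start of the gene and the Irx3 window lies inside it, so neither is printed, while the Lhx1 window shares 1 base with the gene.

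The comparison of double homozygous mutants with wild type asks how combined mutation of Hoxa and Hoxc genes of paralog groups 9 to 11 touched the onset of nephron formation. Of the 9 genes, 2 passed the threshold of an adjusted p below 0.05, Lhx1 and Osr2, and both fell. Both ligands and Pax8 had lower means that did not pass, while Irx1, Irx3, Pou3f3 and Cdh6 showed no difference past the threshold. Of all 15839 genes tested, 2171 (13.7%) passed, 1172 of them lower (7.40%), so 2 of 9 called, both lower, stand against these shares. In bulk tissue, fewer cells of a type and less RNA per cell cannot be told apart. Log2 fold changes and p-values come from edgeR, adjusted across every gene tested, and each SE is the fold change divided by the square root of that test's F.

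**Figure D2:**
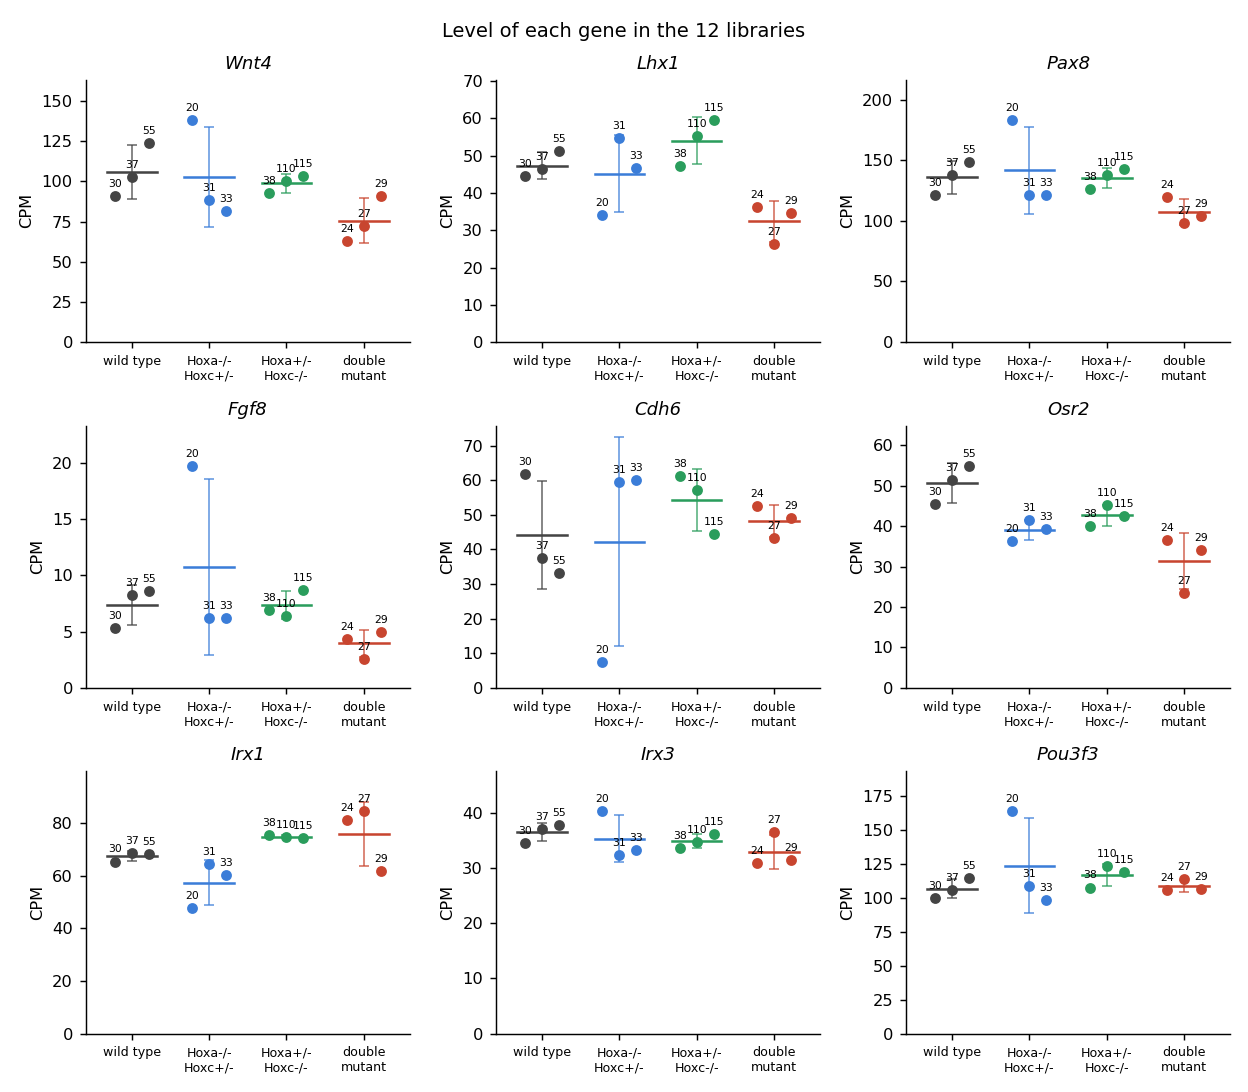
CPM of each of the 9 genes (vertical axes, from 0) in the 12 libraries, grouped by genotype; points carry the embryo number, horizontal lines are means and error bars 1 SD of 3 libraries. All 3 double homozygous mutants lie below all 3 wild type libraries for Lhx1, Pax8, Fgf8 and Osr2, and library 20 is the outlying Hoxa-/- Hoxc+/- point in most panels.

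Wnt4, the ligand that drives the mesenchyme of the aggregate into epithelium, was at 90.6, 103 and 124 CPM in wild type libraries 30, 37 and 55 and at 63.1, 72.4 and 90.7 CPM in double homozygous mutants 24, 27 and 29. Mutant 29 was level with wild type 30, and the other 2 mutants were below every wild type library. The means were 106 ± 16.7 and 75.4 ± 14.0 CPM, a log2 fold change of -0.49 (SE 0.16, edgeR adjusted p = 0.0756). The Hoxa-/- Hoxc+/- kidneys held 138 CPM in library 20, 88.3 in 31 and 81.4 in 33, and the Hoxa+/- Hoxc-/- kidneys 92.5, 100.2 and 103 CPM. Only the Hoxa+/- Hoxc-/- libraries all lay within the wild type range.

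Fgf8, the growth factor of the pretubular aggregate, was the scarcest of the 9 in CPM. Wild type libraries 30, 37 and 55 held 5.30, 8.26 and 8.56 CPM, and double homozygous mutants 24, 27 and 29 held 4.32, 2.60 and 4.97 CPM. Every mutant was below every wild type library, mutant 29 and wild type 30 being the nearest. The log2 fold change of -0.90 (SE 0.28) had an edgeR adjusted p of 0.0713 and did not pass. Library 20 reached 19.7 CPM, while libraries 31 and 33 were both near 6.2 CPM and the Hoxa+/- Hoxc-/- libraries 38, 110 and the third were at 6.92, 6.39 and 8.73 CPM, within the wild type values apart from the slight excess of the third.

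Lhx1, without which the renal vesicle does not become patterned, was at 44.5, 46.3 and 51.3 CPM in wild type 30, 37 and 55 and at 36.2, 26.2 and 34.7 CPM in double homozygous mutants 24, 27 and 29. All mutant libraries were lower than all wild type libraries. The mean fell from 47.4 ± 3.53 to 32.4 ± 5.40 CPM, and the log2 level fell by 0.55 (SE 0.13, edgeR adjusted p = 0.0330). In the other genotypes Lhx1 did not pass: library 20 held 34.2 CPM, 31 and 33 held 54.7 and 46.6 CPM, and Hoxa+/- Hoxc-/- libraries 38, 110 and the third held 47.2, 55.3 and 59.6 CPM. Outside the double homozygous mutants, library 20 was thus the only one below 44 CPM.

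Pax8, a paired box factor that acts with Pax2 in the nephric lineage, was at 121, 138 and 148 CPM in wild type 30, 37 and 55. Double homozygous mutants 24, 27 and 29 held 119, 98.4 and 104 CPM. The ranges did not overlap, but mutant 24 and wild type 30 were close. The log2 fold change was -0.35 (SE 0.10, edgeR adjusted p = 0.0624). Library 20 held 183 CPM, libraries 31 and 33 both 121 CPM, and the Hoxa+/- Hoxc-/- libraries 127 to 143 CPM, inside the wild type range.

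Osr2, a zinc finger factor of the odd-skipped family, was the member with the largest called difference. Wild type libraries 30, 37 and 55 held 45.3, 51.5 and 54.96 CPM, and double homozygous mutants 24, 27 and 29 held 36.6, 23.5 and 34.1 CPM. All mutants were lower than all wild types. The mean fell from 50.6 ± 4.87 to 31.4 ± 6.97 CPM, and the log2 level fell by 0.69 (SE 0.16, edgeR adjusted p = 0.0333). Osr2 was at 36.3, 41.4 and 39.2 CPM in Hoxa-/- Hoxc+/- libraries 20, 31 and 33 and at 40.1, 45.3 and 42.5 CPM in Hoxa+/- Hoxc-/- libraries 38, 110 and the third. No library of any mutant genotype exceeded the lowest wild type library, although Hoxa+/- Hoxc-/- library 110 came level with it at 45.3 CPM.

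Irx1 was at 65.4, 68.8 and 68.4 CPM in wild type and at 81.2, 84.5 and 61.8 CPM in double homozygous mutants 24, 27 and 29, on both sides of the wild type range. Its log2 fold change was 0.16 (SE 0.12, edgeR adjusted p = 0.357). Without mutant 27 it was 0.08 and without mutant 29 it was 0.29 (edgeR adjusted p = 0.701 and 0.0560). Irx3, the other Iroquois gene, was at 34.6 to 37.7 CPM in wild type and 30.8 to 36.4 CPM in the double homozygous mutants (log2 fold change -0.15, SE 0.09, edgeR adjusted p = 0.285). Pou3f3, a POU factor needed for the loop of Henle and the distal tubule, overlapped fully, at 100.2 to 114.6 CPM in wild type and 106 to 114 CPM in the double homozygous mutants. Its log2 fold change was 0.02 (SE 0.07), and it turned to -0.04 when libraries were scaled by size alone.

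Cdh6, a cadherin of the renal vesicle and of the future proximal tubule, was at 61.9, 37.6 and 33.1 CPM in wild type libraries 30, 37 and 55 and at 52.4, 43.2 and 49.0 CPM in double homozygous mutants 24, 27 and 29. The mutants lay inside the wild type range. The log2 fold change was 0.12 (SE 0.22, edgeR adjusted p = 0.723). It depended on wild type 30, without which Cdh6 passed as higher (0.45, edgeR adjusted p = 0.0308), and on wild type 55, without which it was -0.05, within an adjusted p range of 0.0308 to 0.957 over 16 alternatives. With Xist as covariate in all 12 libraries, Cdh6 was at -0.29 (edgeR adjusted p = 0.834). With that covariate in the 11 libraries other than 20, chosen after seeing the data, it was at 0.13 (edgeR adjusted p = 0.769). Library 20 was at 7.35 CPM against 59.3 and 60.1 CPM in its group, and Hoxa+/- Hoxc-/- libraries 38, 110 and the third were at 61.3, 57.2 and 44.4 CPM. Across the 12 libraries the 7 proximal tubule markers on the list used here, with Fbp1 the most abundant per kb and none at 0 in any library, summed to 3083, 1514 and 1161 CPM in wild type 30, 37 and 55, to 433, 2657 and 3547 CPM in 20, 31 and 33, to 3278, 1990.0 and 1586 CPM in 38, 110 and the third and to 2979, 3599.5 and 2351 CPM in 24, 27 and 29. Libraries 20 and 55 were thus the lowest pair for both Cdh6 and that sum, and the part of proximal tubule content in the level of Cdh6 was not tested.

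Over the 9 genes, the double homozygous mutants' log2 fold changes were negative for 6 and positive for 3, with a median of -0.35 against -0.01 over the 15839 genes tested. The groups did not overlap for 4 of the 9, Fgf8, Lhx1, Pax8 and Osr2, all lower in the mutants, against 6012 of 15839 genes (38%) that did not overlap in either direction. Unadjusted p-values were below 0.05 for 5 of the 9, these 4 and Wnt4, as for 5131 of the 15839 genes. Of all genes called, 999 (46%) were higher and 1172 lower, and with library size alone as the scale 742 of 2391 (31%) were higher.

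The calls of Lhx1 and Osr2 depended on single libraries and on the fit, while their direction did not. Both were negative in all 16 alternatives, as were Wnt4, Fgf8 and Pax8, and the adjusted p ranged from 0.00273 to 0.136 for Lhx1 and from 0.00144 to 0.114 for Osr2, passing in 7 and 10 alternatives. Leaving out wild type 37 or 55 or mutant 24 called none of the 9 (535, 633 and 793 genes in all). Without mutant 29, Osr2 and Lhx1 missed narrowly (edgeR adjusted p = 0.0527 and 0.0511) and Wnt4 was called (0.0390, in a range of 0.0266 to 0.387 over the alternatives), among 1644 genes. Without mutant 27, Lhx1 and Osr2 were called among 1101 genes, and without wild type 30 Wnt4, Fgf8, Lhx1, Pax8 and Osr2 were called lower and Cdh6 higher among 3386 genes. DESeq2 called these same 5 genes lower with all 6 libraries. In a fit of all 12 libraries Osr2 was called and Lhx1 was not, both without a covariate (edgeR adjusted p = 0.0197 and 0.0826, log2 fold changes of -0.69 and -0.55) and with Xist as covariate (0.0436 and 0.0903, -0.69 and -0.62). In these 12 libraries Fgf8 moved from -0.90 without the covariate to -0.44 with it, and Pax8 from -0.34 to -0.19. In the 11 libraries other than 20 the covariate moved them less, Fgf8 from -0.90 to -0.76 and Pax8 from -0.35 to -0.30. Neither was called with the covariate in the 12 libraries (edgeR adjusted p = 0.5795 and 0.5054) or in the 11 (0.132 and 0.105). With Xist as covariate in the 11 libraries other than 20, an alternative chosen after seeing the data, edgeR called Osr2 and Wnt4 and not Lhx1 (adjusted p = 0.0420, 0.0485 and 0.0680), and without the covariate those 11 libraries gave the same 5 calls as DESeq2, Lhx1 among them.

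**Figure D3:**
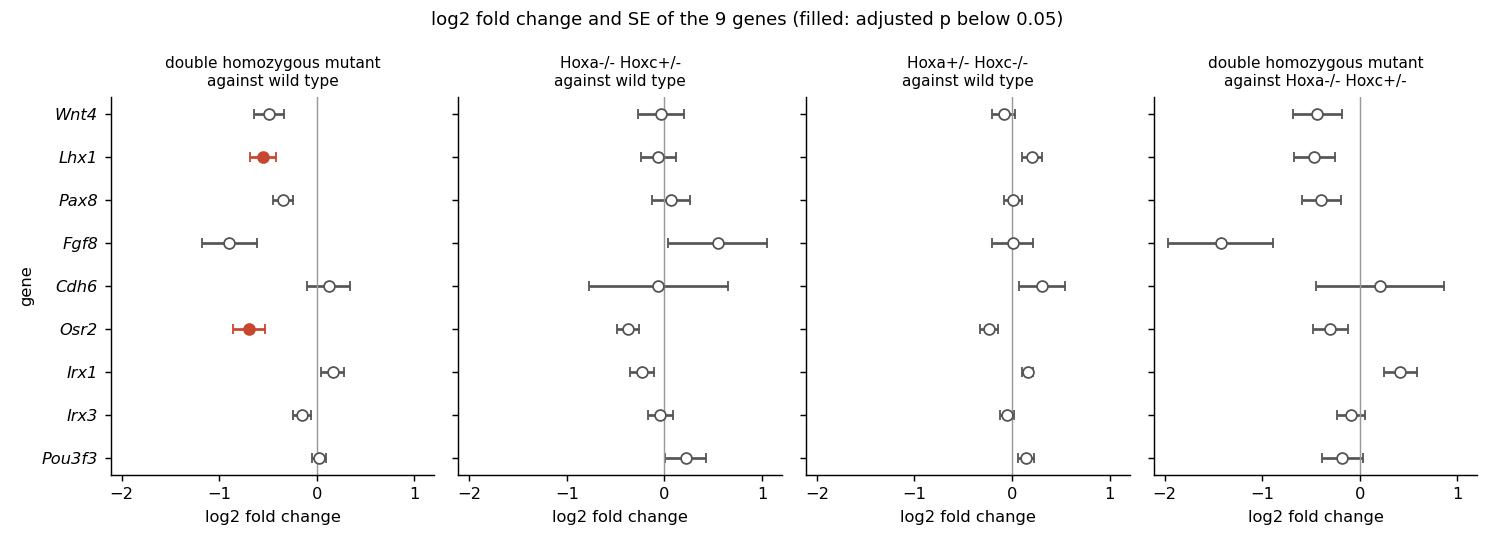
Log2 fold change of the 9 genes (horizontal axes) in the 4 comparisons, with bars of 1 SE from edgeR's fit of the 6 libraries compared; filled points have an adjusted p below 0.05. Only Lhx1 (-0.55) and Osr2 (-0.69) in double homozygous mutants against wild type are filled, and the widest bars belong to the comparisons that contain library 20.

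Hoxa-/- Hoxc+/- kidneys were compared with the same wild type libraries to see what the homozygous Hoxa mutation did beside heterozygous Hoxc. None of the 9 genes passed, as none of 15789 genes did (0%) by edgeR, where 360 had an unadjusted p below 0.05, while DESeq2 called 22 genes and limma 1. Osr2 and Irx1 were the 2 of the 9 whose groups did not overlap, both lower, against 1315 of 15789 genes (8.33%). Osr2 averaged 39.0 ± 2.55 CPM against 50.6 ± 4.87 in wild type (log2 fold change -0.37, SE 0.11), and it was the one member with an unadjusted p below 0.05. Irx1 was at 47.7, 64.4 and 60.1 CPM in libraries 20, 31 and 33, against a wild type mean of 67.5 ± 1.85 CPM (-0.23, SE 0.13), and without library 20 its log2 fold change was -0.12. The edgeR adjusted p was 0.9999 for all 9.

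The signs of most other members in this comparison rested on library 20. With it, Fgf8 had a log2 fold change of 0.54 (SE 0.51), Pou3f3 0.22, Pax8 0.07, Lhx1 -0.06 and Cdh6 -0.06. Without it they were -0.25, -0.05, -0.17, 0.09 and 0.43, each of the opposite sign, and edgeR called 8 genes, none of them among the 9. Wnt4 and Irx3 moved from -0.04 each to -0.32 and -0.16 without library 20, and Osr2 from -0.37 to -0.33.

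Hoxa+/- Hoxc-/- kidneys, the reciprocal genotype, were also set against wild type. None of the 9 genes passed, where 376 of 15902 genes (2.36%) did, 133 higher and 243 lower, and 3349 had an unadjusted p below 0.05. DESeq2 and limma called none of the 9 either, among 1318 and 158 genes. The groups did not overlap for Osr2, lower, and Irx1, higher, as for 4227 of 15902 genes (26.6%), and these 2 were also the members with an unadjusted p below 0.05. Osr2 averaged 42.6 ± 2.61 CPM (log2 fold change -0.24, SE 0.09, edgeR adjusted p = 0.198). Irx1, tight within the group at 75.5, 74.8 and 74.4 CPM, averaged 74.9 ± 0.53 CPM (0.16, SE 0.06, edgeR adjusted p = 0.178). Lhx1 (0.20), Pou3f3 (0.14) and Cdh6 (0.31) had positive log2 fold changes within overlapping ranges, and Wnt4 (-0.09), Irx3 (-0.05), Pax8 (0.01) and Fgf8 (0.00) were near 0. With each library left out in turn, Lhx1 was at 0.12 to 0.28, Pou3f3 at 0.084 to 0.19 and Cdh6 at 0.13 to 0.62. Over 15 alternatives Cdh6 was as low as 0.049. The count of all genes called was 60, 70, 63 and 99 without wild type 37, wild type 55, library 110 and the third library, and 549 and 339 without wild type 30 and library 38, with none of the 9 called in any of these.

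Double homozygous mutants were finally compared with Hoxa-/- Hoxc+/- kidneys of the same run, which by their labels differ in Hoxc alleles and by the study's text may differ at Hoxa11 too. EdgeR called none of the 9 genes and none of 15764 (0%), with 1787 below an unadjusted p of 0.05, while DESeq2 called 554 and limma 1, again without a member. Pax8 and Fgf8 were the 2 members whose groups did not overlap, both lower in the double homozygous mutants, against 3591 of 15764 genes (22.8%). Fgf8 had a log2 fold change of -1.43 (SE 0.54, edgeR adjusted p = 0.410), and Pax8 -0.39 (SE 0.20, 0.522). Fgf8 and Irx1 (0.41, SE 0.17) had an unadjusted p below 0.05. Without library 20, 687 genes were called and none was a member, Fgf8 was at -0.63, Pax8 at -0.15, Wnt4 at -0.15 (-0.44 with it), Osr2 at -0.34 (-0.30 with it) and Irx1 at 0.31. Lhx1 moved from -0.47 to -0.62 (edgeR adjusted p = 0.0728, in a range of 0.0728 to 0.955 over 14 alternatives), and Cdh6, Irx3 and Pou3f3 turned from 0.21, -0.09 and -0.18 to -0.29, 0.02 and 0.09.

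Since 3 of these comparisons share the wild type libraries, their values are set side by side only. For Osr2 the log2 fold changes against wild type were -0.37, -0.24 and -0.69 in the order Hoxa-/- Hoxc+/-, Hoxa+/- Hoxc-/-, double. For Lhx1 they were -0.06, 0.20 and -0.55, and for Irx1 -0.23, 0.16 and 0.16. Whether the double homozygous mutants differed from the other mutants in these genes was tested only against Hoxa-/- Hoxc+/-, where no member passed.

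The other genes of the signals around the 9 were read from lists, whose counts stand beside 13.7% of all genes called in double homozygous mutants against wild type, 7.40% lower and 6.31% higher. In every list, the most abundant gene is by CPM per kb averaged over the 12 libraries, and in some lists, such as cap mesenchyme, ureteric bud and stroma in the double homozygous mutants, another gene led within a genotype. Of 18 genes of Wnt induction, 8 fell and 1 rose in the double homozygous mutants, with a median log2 fold change of -0.35, the same to 2 decimals as that of the 9. Wnt9b, the inducer of Wnt4, fell from 36.1 to 23.8 CPM (-0.61, SE 0.13, edgeR adjusted p = 0.0277, in a range of 0.00130 to 0.0998 over 16 alternatives), and the largest falls were those of the Wnt antagonist Dkk1 (-1.48, SE 0.23), Wnt11 (-1.07, SE 0.18), the R-spondin receptor Lgr5 (-0.9995, SE 0.19) and the TCF/LEF factor Lef1 (-0.75, SE 0.16). Sfrp1, a secreted inhibitor, rose (0.81, SE 0.14). With each library dropped in turn, Dkk1 passed in 6 of 6 fits, Wnt11 in 5, Sfrp1 in 4, Lgr5 in 3, Wnt9b in 2 and Lef1 in 1. Ctnnb1, the most abundant of the list per kb, had a log2 fold change of -0.02. Of 12 genes of FGF response, 3 fell and none rose (median -0.28). They were Etv4 (-1.02, SE 0.23), Etv5 (-0.60, SE 0.16) and the receptor Fgfr1 (-0.46, SE 0.11), which passed in 3, 2 and 2 of those 6 fits. Which signal their levels follow was not tested. Leaving out wild type 30, 37 or 55 or mutant 24, 27 or 29 left 9, 2, 3, 3, 4 and 7 Wnt genes lower and 5, 0, 0, 0, 1 and 4 FGF genes lower.

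Further markers of the structures in which the 9 genes act were set beside them. Of 23 other genes of the renal vesicle and the S-shaped body, 3 fell and 1 rose (median -0.17), beside the 13.7% called and 7.40% lower of all genes: Emx2 (-0.55, SE 0.09), Ldb1 (-0.30, SE 0.08), whose product binds LIM factors such as Lhx1, Mecom (-0.26, SE 0.07) and, higher, Papss2 (0.85, SE 0.21). These calls were not stable: when each of the 6 libraries was dropped in turn, Emx2 passed in 4 of 6 fits, Papss2 in 2, Ldb1 in 1 and Mecom, with an edgeR adjusted p of 0.04996 (0.0147 to 0.187 over 16 alternatives), in 0. Without wild type 30, 37 or 55 or mutant 24, 27 or 29, 4, 0, 0, 1, 1 and 3 of them were lower. Of 10 cap mesenchyme genes, the population from which the renal vesicle arises, 6 fell and none rose (median -1.06), among them Gdnf (-1.73, SE 0.28), Cited1 (-1.45, SE 0.34), Tmem100 (-1.10, SE 0.20) and Crym (-1.02, SE 0.24), which passed in 6, 2, 5 and 2 of the 6 fits. Six2, the most abundant of that list over the 12 libraries, was at 67.1, 84.1 and 105 CPM in wild type and 28.0, 13.2 and 58.3 CPM in the double homozygous mutants, without overlap (-1.37, SE 0.46, edgeR adjusted p = 0.0868). With each library dropped in turn, Six2 ranged from -2.06 to -0.98 and passed in 1 of the 6 fits. The list summed to 609, 720.4 and 782 CPM in wild type 30, 37 and 55 and to 385, 315 and 533 CPM in mutants 24, 27 and 29, and leaving out each of these in turn left 6, 1, 2, 2, 3 and 9 of its genes lower. The 9 genes together summed to 569, 596 and 641 CPM in wild type and 529.98, 501 and 517 CPM in the double homozygous mutants. The part of cap mesenchyme content in the lower levels of Lhx1 and Osr2 was not tested.

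**Figure D4:**
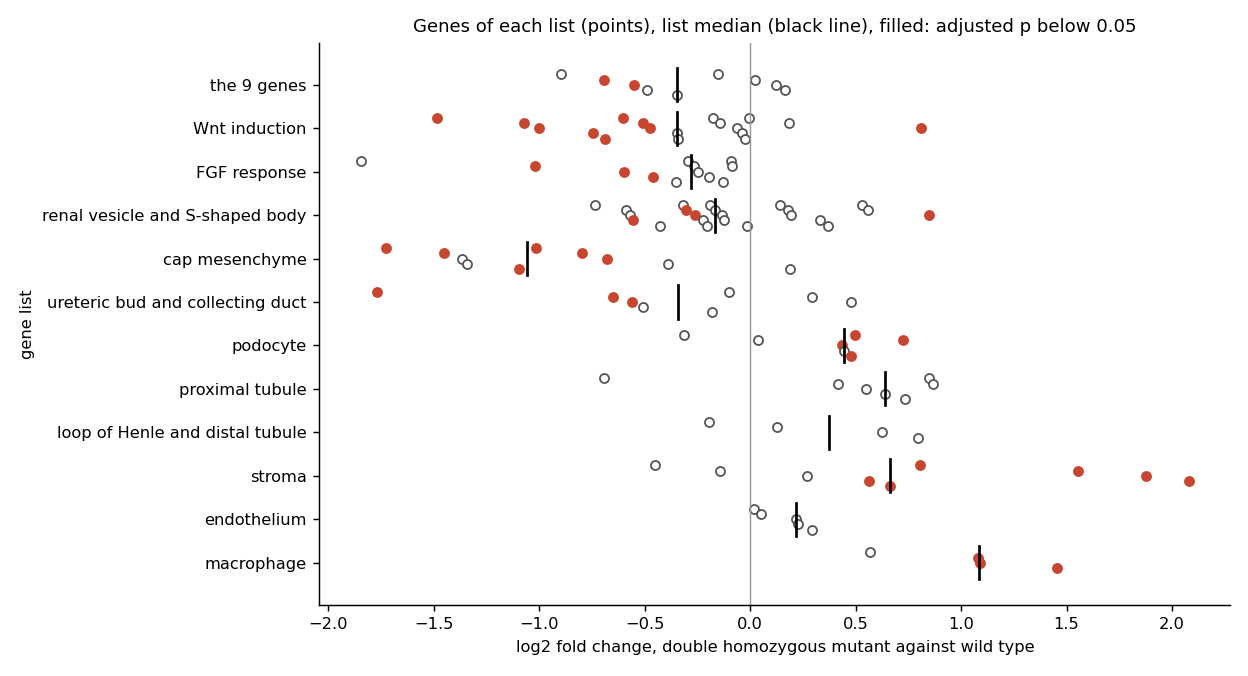
Log2 fold change of each listed gene (points, horizontal axis) in double homozygous mutants against wild type, by gene list, with the list median as a black line; filled points have an edgeR adjusted p below 0.05. The medians of the 9 genes (-0.35), Wnt induction (-0.35) and cap mesenchyme (-1.06) lie left of 0, and those of podocyte (0.45), stroma (0.66) and macrophage (1.083) right of it.

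Markers of other cell types moved in the same comparison, and their part in the levels of the 9 genes was not tested. Of 9 stroma genes, with Col3a1 the most abundant over the 12 libraries, 6 rose and none fell, Dcn most (2.08, SE 0.16), and the list summed to 3470.0, 3685 and 3406 CPM in wild type against 8585, 10273 and 9327 CPM in the double homozygous mutants. Of 4 macrophage genes, with C1qa the most abundant, 3 rose, Adgre1 (listed as Emr1) most (1.46, SE 0.20), and the sums were 47.8, 44.2 and 41.6 against 102, 105 and 78.5 CPM. Of 7 podocyte genes, with Podxl the most abundant, 4 rose and none fell, and the sums were 1263, 1366 and 1347 against 1818, 1916 and 1574 CPM. Of 8 ureteric bud and collecting duct genes, with Aqp2 the most abundant over the 12 libraries, 3 fell, Ret most (-1.77, SE 0.28), and the sums were 783, 779.5 and 851 against 649, 809.9 and 758 CPM. Leaving out wild type 30, 37 or 55 or mutant 24, 27 or 29 left 3, 0, 0, 0, 2 and 3 podocyte genes higher, 3, 1, 2, 2, 2 and 3 ureteric bud genes lower, 5 or 6 stroma genes higher and 3 macrophage genes higher each time. Dkk1, Gdnf, Ret, Dcn and Adgre1 passed in all of these 6 fits. No gene of these lists was at 0 in any library.

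The remaining lists served to look for other tissues, with Fbp1, Slc12a1, Cdh5, Hba-a1, Stmn2, Inha and Ttr the most abundant gene of each over the 12 libraries. No gene passed among 7 of the proximal tubule (median 0.64), 4 of the loop of Henle and distal tubule (0.38), 5 of endothelium (0.22), 3 of erythroid cells (0.76) and 3 tested of gonad and adrenal gland (-0.21), although 5 proximal tubule genes passed as higher without wild type 30. Of 5 tested genes of neurons and Schwann cells (median 0.88) 2 rose, Sox10 most (1.66, in 2 of 6 leave-out fits), and of 6 genes of liver and muscle (median 2.09) 4 rose, Alb most (3.40, in 4 of 6), from list sums of 3.89, 3.42 and 6.16 CPM in wild type to 23.3, 31.6 and 10.5 CPM in the double homozygous mutants. Without wild type 30, 37 or 55 or mutant 24, 27 or 29, 2, 0, 1, 1, 0 and 2 neuron genes and 4, 0, 3, 2, 4 and 5 liver and muscle genes passed as higher. In Hoxa+/- Hoxc-/- kidneys against wild type, 376 of all 15902 genes (2.36%) were called. Among all listed genes, edgeR called Dkk1 (-0.75, adjusted p = 0.0456) and Ret (-0.52, 0.0435) lower and Col3a1 (0.52, 0.0375) higher. Over 15 alternatives their adjusted p ranged, in that order, from 0.000132 to 0.589, 0.000407 to 0.652 and 8.09e-06 to 0.194.

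**Figure D5:**
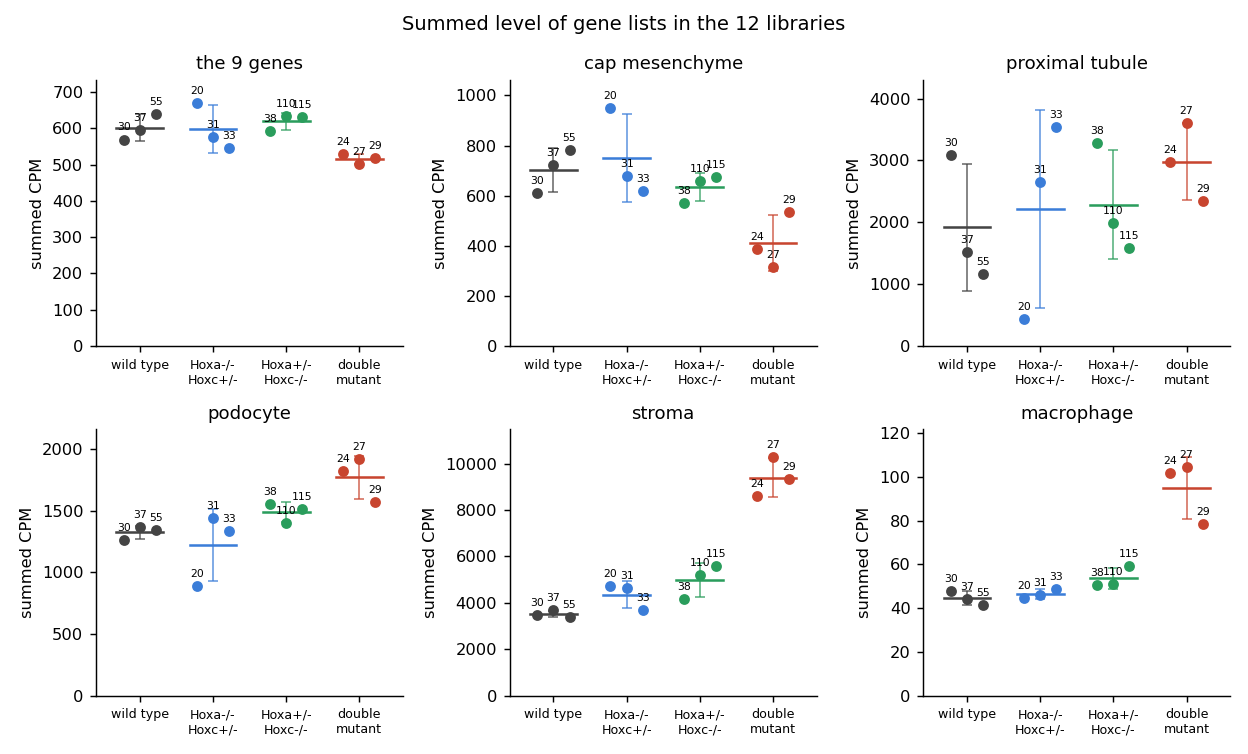
Summed CPM (vertical axes, from 0) of the 9 genes and of 5 marker lists in the 12 libraries, by genotype; points carry the embryo number, lines are means and error bars 1 SD of 3 libraries. The 9 genes lie between 501 and 530 CPM in the double homozygous mutants and between 569 and 641 in wild type, while stroma lies at 8585 CPM or more in the double homozygous mutants and at 3685 or less in wild type.

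Genes whose levels followed the 9 most closely over the 12 libraries were sought among 14213 others, by the correlation of log2 CPM with the mean of the 9 genes' standardized log2 CPM. That mean was -0.54, -0.80 and -0.65 SD in double homozygous mutants 24, 27 and 29, below the other 9 libraries (-0.31 to 0.62 SD). Among the closest were Znrf1 (r 0.976, rho 0.951), Cdc7 (r 0.970, rho 0.958), Cnot3, Taf1d, Mum1, 2410002F23Rik, Zfp57, Ldb1 and Fam193b, the last with r 0.954 and rho 0.972. Without library 20 their r was 0.948 to 0.974, and these values describe the 12 libraries, which share genotype groups and runs. Within the 9, each gene's log2 CPM correlated with the mean of the other 8 at r of 0.28 (Pou3f3) to 0.80 (Pax8) for 7 of them, and at -0.55 for Cdh6 and -0.45 for Irx1. Without library 20 the 7 were at 0.38 (Pou3f3) to 0.91 (Pax8), and the last 2 at -0.41 and -0.20.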

How the data were processed

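RNA was sequenced from whole E18.5 kidneys in 12 libraries, and the authors aligned reads to mm10 in Strand NGS (version not stated), removing reads that matched several positions. The deposited table gives an expected count per gene and library, and the authors also deposited log2 values, used here in a single alternative. Expected counts were rounded and tested in R 4.3.3 with edgeR 4.0.16 (TMM scaling, filterByExpr with a minimum count of 10 and a minimum total of 15, quasi-likelihood test), each comparison on its 6 libraries. P-values were adjusted by the Benjamini-Hochberg method over all genes tested, with a threshold of 0.05. They weigh a group difference against the spread between these samples, whose labels carry animal numbers only. Without Xist as covariate they do not separate genotype from embryo sex. Where a symbol was listed more than once (92 symbols), the entry with most reads was taken.

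The 9 genes and the gene lists were chosen with earlier results of these data known. Genes were named by a rule: the 9 genes, Six2, Cited1, Wnt9b and the mutated Hox genes always; up to 4 rises and 4 falls, the largest past the threshold, in the lists of Wnt induction, FGF response, renal vesicle and S-shaped body, and cap mesenchyme; in each other list the most abundant gene and the largest called change each way; and the 10 genes most like the 9. Some results that this rule names are not reported here. Alternatives were other scaling (RLE, library size only), DESeq2 1.42.0, limma 3.58.1 on the deposited log2 values, all genes with at least 1 count, all 12 libraries, the 9 libraries of 1 run, Xist as covariate and leaving out each library. Fits of the 11 libraries other than library 20 were chosen after seeing the data. The study's own Audic-Claverie test, which has no term for replicates, was not used. Exon lengths came from GENCODE M21 and promoters from RefSeq. The edgeR, DESeq2 and limma tests were tried on simulated counts for double homozygous mutants against wild type, and the other steps were not. Figures were drawn with Python 3.11.15 and matplotlib 3.10.9.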

Additional observations from a re-analysis of the deposited data

How the results depend on the processing

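In double homozygous mutants against wild type, the count of genes called (2171) was 3380 by DESeq2, 1190 with all 12 libraries, 690 with the 9 libraries of 1 run, 994 with Xist as covariate and 1215 by limma, and 535 to 3386 when each library was left out in turn. Of the 9 genes 5, 1, 0, 1 and 0 were called in these fits, 5 in the 11 libraries other than library 20 (chosen after seeing the data), and 0 to 6 when each library was left out. In Hoxa-/- Hoxc+/- against wild type edgeR called 0 genes, DESeq2 22, all 12 libraries 2 and limma 1, and 0 to 8 were called when each library was left out. In Hoxa+/- Hoxc-/- against wild type the counts were 1318 by DESeq2, 149 with all 12 libraries, 130 with Xist as covariate, 158 by limma and 976 with the 11 libraries, and 60 to 549 when each library was left out. In double homozygous mutants against Hoxa-/- Hoxc+/- they were 554, 1 (all genes with at least 1 count), 540 (12 libraries), 181 (9 libraries), 641 (Xist) and 1 (limma), and 0 to 687.

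Some log2 fold changes reversed. Against wild type, the double homozygous mutants' Pou3f3 was -0.041 with library size only and -0.040 with Xist in the 11 libraries, and Cdh6 -0.29 with Xist in all 12; leaving out libraries gave -0.020 to 0.073 and -0.046 to 0.45. In Hoxa-/- Hoxc+/-, Pax8 was -0.028 and Cited1 -0.095 with library size only, Cited1 -0.064 by limma, and Wnt4 0.055 and Irx3 0.0030 with Xist. Leaving out libraries there gave Pax8 -0.17 to 0.17, Cdh6 -0.40 to 0.43, Cited1 -0.41 to 0.22, Wnt4 -0.32 to 0.11, Lhx1 -0.22 to 0.092, Fgf8 -0.25 to 0.82, Pou3f3 -0.049 to 0.36, Six2 -0.22 to 0.50 and Irx3 -0.16 to 0.022. In Hoxa+/- Hoxc-/-, Pax8 and Fgf8 were -0.0034 and -0.0052 with all 12 libraries and -0.0052 and -0.0071 with the 11. Leaving out libraries gave Pax8 -0.078 to 0.071, Fgf8 -0.19 to 0.12, Wnt4 -0.20 to 0.036, Six2 -0.31 to 0.017 and Wnt9b -0.16 to 0.083. In double homozygous mutants against Hoxa-/- Hoxc+/- it gave Cdh6 -0.29 to 0.54, Irx3 -0.17 to 0.024 and Pou3f3 -0.33 to 0.089. For each, the cause was not tested.

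Over all alternatives in double homozygous mutants against wild type, 110 member results kept their direction and their side of the threshold, 13 newly passed, 15 no longer passed and 6 reversed. With 3 libraries per group and whole kidneys, differences smaller than the spread between libraries could not be detected.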
